A study of Mus musculus with 9 samples.

Results

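Purine and pyrimidine synthesis in the mouse lens was followed through 9 enzymes: *Cad*, *Dhodh* and *Umps* of UMP synthesis, *Ppat*, *Gart*, *Paics* and *Atic* of IMP synthesis, *Impdh2* of the GMP branch and *Tyms* of thymidylate synthesis. They were chosen by name as enzymes of these steps, with earlier results of these data known. All 9 were found among the 55416 genes of the count tables and among the 14903 genes tested. RNA was sequenced from lenses at E16.5, late in embryonic development, in 4 *Atf4* null and 5 wildtype embryos, each library holding both lenses of 1 embryo. The *Atf4* null embryos were homozygous for *Atf4*tm1Tow, a germline allele in which a neomycin cassette replaces the coding exons of *Atf4*, so that every tissue lacked its coding sequence. The wildtype embryos came from the same heterozygous intercrosses on a mixed C57Bl/6 and 129 background, both sexes were used, and neither group received a treatment. ATF4 is a transcription factor of the integrated stress response, and the study asked what it does in the embryonic lens.

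Cells make nucleotides from small precursors in a pair of pathways that share phosphoribosyl pyrophosphate, glutamine and aspartate as substrates. The purine ring is built on the ribose until IMP is reached, which then branches to AMP and GMP, while the pyrimidine ring is closed before ribose is attached to give UMP, from which CTP and, after reduction, dTMP are made. Purine and thymidylate synthesis also consume one-carbon units carried by folate, and ATF4 is known in other cells for driving genes of the serine and folate pathway that supplies these units. In the lens, the epithelial cells of the germinative zone divide and need deoxyribonucleotides, whereas fiber cells leave the cell cycle and lose their nuclei as they mature.

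Gene counts ran from 8409779 to 8906996 in wildtype and from 7440807 to 8696699 in *Atf4* null libraries. *Atf4* was at 119 to 155 TMM-scaled CPM (gene counts relative to library size) in wildtype and at 0.582 to 10.6 CPM in *Atf4* null libraries. The study traced the reads left in null lenses to non-coding exons and the intron between them. The lens fiber markers summed to between 61300 and 113000 CPM in wildtype and between 47100 and 112000 CPM in *Atf4* null libraries, the lowest wildtype sum being that of replicate 5 and the other 4 lying at 105000 CPM or above. Of 11 fiber markers tested, 4 were called lower and none higher, and *Lim2* was at 0 in every library. Wildtype replicate 5 stood apart: its skeletal muscle markers summed to 4580 CPM and its mesenchyme markers to 13900 CPM, against at most 21.4 and 269 CPM in the other wildtype libraries. That library was the lowest wildtype library for 5 of the 9 enzymes and the highest for *Tyms*. The retina markers ran from 131 to 230 CPM in wildtype and from 227 to 650 CPM in *Atf4* null libraries, with 4 of 10 called higher, and 3 of 4 lens epithelium markers were called lower, their sum being 851 to 1310 CPM in wildtype and 602 to 851 CPM in *Atf4* null libraries. The blood markers summed to 231 to 740 CPM in wildtype and 182 to 254 CPM in *Atf4* null libraries, with 1 called lower. Pigment cell markers summed to 43.1 to 110 CPM in *Atf4* null libraries and to 20.2 to 143 CPM in wildtype, at most 42.1 CPM outside replicate 5. Endothelium markers summed to 208 to 416 CPM in *Atf4* null libraries and 341 to 655 CPM in wildtype. No gene of either set was called. The part of these cell mixtures in the values below was not tested, and in whole lenses fewer cells of a type and less RNA per cell cannot be told apart.

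*Paics*, a bifunctional enzyme of the middle of IMP synthesis, was lower in the *Atf4* null lens, and the other 8 enzymes did not pass the test. With p-values of edgeR's quasi-likelihood test adjusted by Benjamini-Hochberg over all genes tested, 1 of 9 enzymes (11.1%) had an adjusted p below 0.05, beside 5.9% of all genes tested (3.67% lower and 2.23% higher). The groups of libraries did not overlap for *Paics*, *Cad* and *Atic*, which is 3 of 9 (33.3%), beside 10.2% of all genes tested. These enzymes also had an unadjusted p below 0.05, beside 19.6% of all genes. Of the 9 log2 fold changes, 5 were positive and 4 negative with a median of 0.05, where the median over all genes was 0.001. With 9 genes, a single call against 5.9% is no result about the group of enzymes, and the genes are described one by one.

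**Figure D1:**
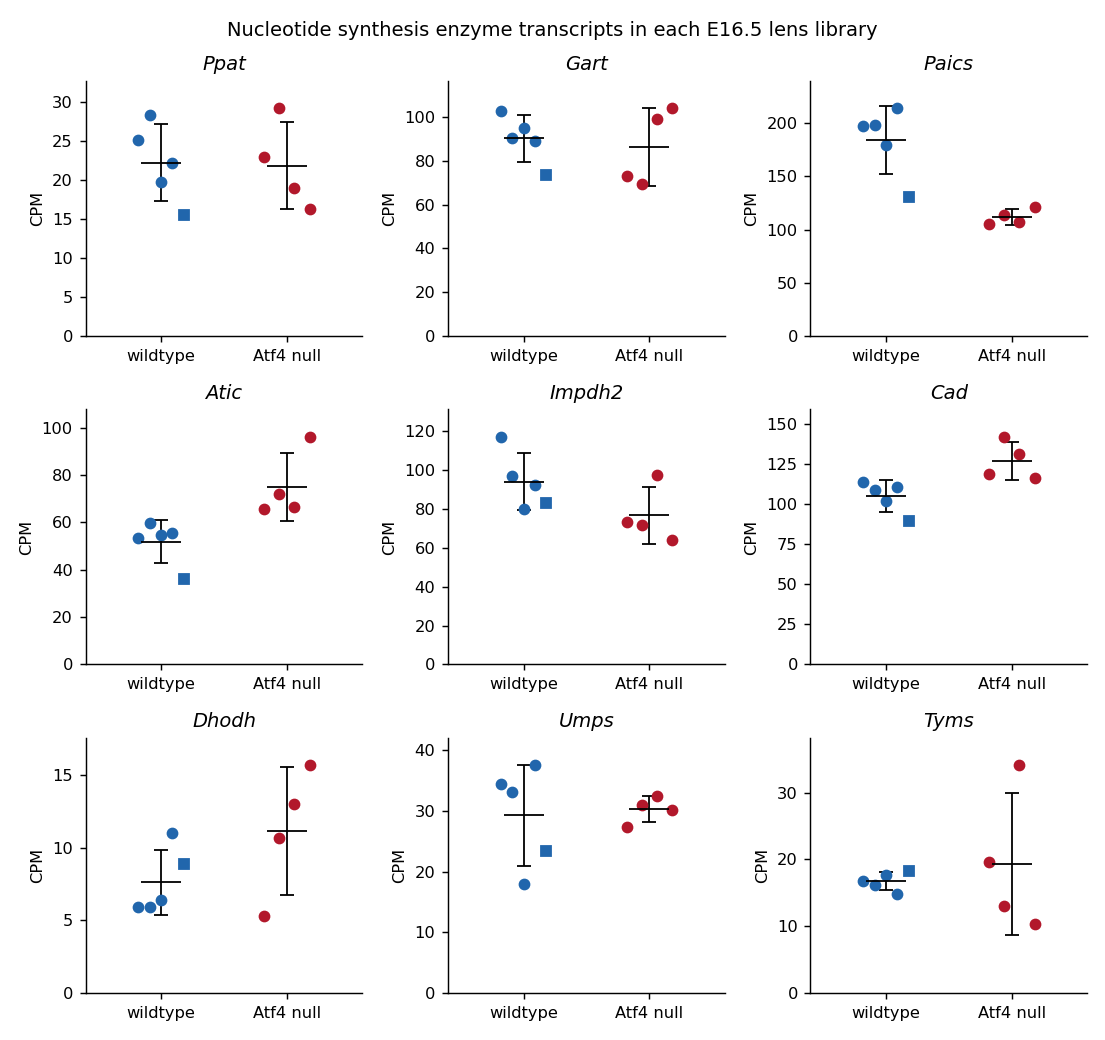
Each panel gives 1 enzyme in TMM-scaled CPM on an axis from 0, with a point for each of 5 wildtype and 4 *Atf4* null libraries, the mean and the SD, and wildtype replicate 5 as a square. *Paics* lies between 105 and 121 CPM in the *Atf4* null libraries, below every wildtype library, while *Cad* and *Atic* lie above every wildtype library and the other 6 enzymes overlap between genotypes.

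IMP synthesis begins with *Ppat* (ENSMUSG00000029246; GRCm39 chr5:77061096-77099436, minus strand), the amidotransferase that commits phosphoribosyl pyrophosphate to purines. *Ppat* was at 25.2, 28.4, 19.8, 22.2 and 15.5 CPM in wildtype replicates 1 to 5 and at 22.9, 29.2, 19 and 16.3 CPM in *Atf4* null replicates 1 to 4. The groups covered nearly the same range, and their means were 22.2 ± 4.94 (SD, n = 5) and 21.8 ± 5.58 CPM (SD, n = 4). The log2 fold change of -0.02 had a standard error of 0.23 and a 95% interval from -0.52 to 0.48, so that a change of moderate size in either direction was not detectable at this spread (edgeR adjusted p = 0.975). *Gart* (ENSMUSG00000022962; chr16:91416576-91444536, minus strand) encodes a trifunctional enzyme of early steps, 1 of which uses formyl tetrahydrofolate. Its level was 103, 90.5, 95.2, 89.1 and 73.7 CPM in wildtype and 73, 69.5, 99.2 and 104 CPM in *Atf4* null replicates. Replicates 1 and 2 of the *Atf4* null lenses were below every wildtype library and the other two were within or just above the wildtype range, with a 95% interval of the log2 fold change from -0.39 to 0.26 (edgeR adjusted p = 0.875).

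*Paics* (ENSMUSG00000029247; chr5:77099139-77116370, plus strand) carboxylates the imidazole ring and then adds aspartate to it. It was at 197, 198, 180, 214 and 131 CPM in wildtype replicates 1 to 5 and at 105, 114, 107 and 121 CPM in *Atf4* null replicates 1 to 4. The *Atf4* null libraries lay close together below the lowest wildtype library, which was replicate 5. The mean was 184 ± 32 CPM in wildtype (SD, n = 5) and 112 ± 7.25 CPM in *Atf4* null libraries (SD, n = 4). *Paics* was thus 1.64-fold lower in *Atf4* null lenses by the fitted model, with a log2 fold change of -0.72, a standard error of 0.14 and a 95% interval from -1.02 to -0.42 (edgeR's quasi-likelihood test, adjusted p = 0.00791). Without wildtype replicate 5 the log2 fold change was -0.81 (edgeR adjusted p = 0.000194), and over 18 other settings of the analysis it ran from -0.82 to -0.59 with adjusted p between 6.84e-05 and 0.0324.

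*Atic* (ENSMUSG00000026192; chr1:71596294-71619241, plus strand) is the bifunctional formyltransferase and cyclohydrolase that closes the purine ring as IMP, again with formyl tetrahydrofolate. It was at 53.5, 59.7, 54.8, 55.4 and 36.3 CPM in wildtype and at 65.6, 71.9, 66.5 and 96.2 CPM in *Atf4* null replicates. Every *Atf4* null library was above every wildtype library, with wildtype replicate 5 well below the other 4 and *Atf4* null replicate 4 well above the others of its group. The means were 52 ± 9.06 (SD, n = 5) and 75 ± 14.4 CPM (SD, n = 4), a 1.44-fold difference with a log2 fold change of 0.53, a standard error of 0.17 and a 95% interval from 0.17 to 0.89. It missed the threshold over all genes (edgeR adjusted p = 0.0903), as it did without wildtype replicate 5, where the log2 fold change was 0.43 (edgeR adjusted p = 0.0957). Adjusted p over the 18 other settings ran from 0.0132 to 0.218, and *Atic* passed in 2 of them, DESeq2 (adjusted p = 0.0458) and scaling by library size alone (edgeR adjusted p = 0.0132).

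The neighbours *Ppat* and *Paics* are transcribed in opposite directions, and in the annotation their first exons overlap over 298 bases (chr5:77099139-77099436), which is 5.5% of the exon length of *Ppat* and 3.5% of that of *Paics*. The strand setting of the read counting was not given in the sources used here, so reads in the shared exon could not be assigned with certainty. Within each library the ratio of *Paics* to *Ppat* CPM was 7.82, 6.98, 9.11, 9.68 and 8.44 in wildtype and 4.58, 3.91, 5.66 and 7.43 in *Atf4* null replicates. Only *Atf4* null replicate 4 reached into the wildtype range. The mean log2 ratio was 2.95 ± 0.17 in wildtype (SD, n = 5) and 2.28 ± 0.37 in *Atf4* null libraries (SD, n = 4), a difference of -0.67 (exact permutation test over libraries, two-sided, p = 0.016, adjusted p = 0.024 over 3 ratios). The direction held with each library left out in turn, with differences from -0.82 to -0.54, and the exact p rose to 0.057 without wildtype replicate 1, 3, 4 or 5.

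The other genes of IMP synthesis were taken from a list of 10, of which 6 are not among the 9 enzymes. Among these 6, 1 was called higher and none lower, beside 2.23% and 3.67% of all genes tested, and the median log2 fold change was 0.08. The gene called was *Adsl* (ENSMUSG00000022407), whose lyase follows *Paics* and precedes *Atic*, and which also acts in the AMP branch. *Adsl* was at 51.1, 62.9, 56.3, 50.4 and 41.4 CPM in wildtype and at 63.3, 94.5, 95.6 and 128 CPM in *Atf4* null replicates. The groups did not overlap, but *Atf4* null replicate 1 was next to the highest wildtype library. *Adsl* was 1.82-fold higher in the null, with a log2 fold change of 0.86 and a standard error of 0.18 (edgeR's quasi-likelihood test, adjusted p = 0.014), and it passed in all 18 other settings. The gene lies at chr15:80832518-80855148, 691 kb from *Atf4* on the same chromosome, and an effect of the *Atf4* null allele and one of strain-derived sequence carried along with it cannot be told apart at this locus. *Pfas*, the synthase whose step falls between activities of *Gart*, had a mean of 59.8 CPM in wildtype and 55.5 CPM in *Atf4* null libraries with a log2 fold change of -0.11 (edgeR adjusted p = 0.754), and *Prpsap1*, which binds phosphoribosyl pyrophosphate synthetase, had -0.05 (edgeR adjusted p = 0.894). In pathway order, the *Paics* transcript was thus lower and the *Adsl* transcript after it higher. That of *Atic*, the next, had no overlap in the higher direction without passing the test. This order was not tested as a pattern.

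**Figure D2:**
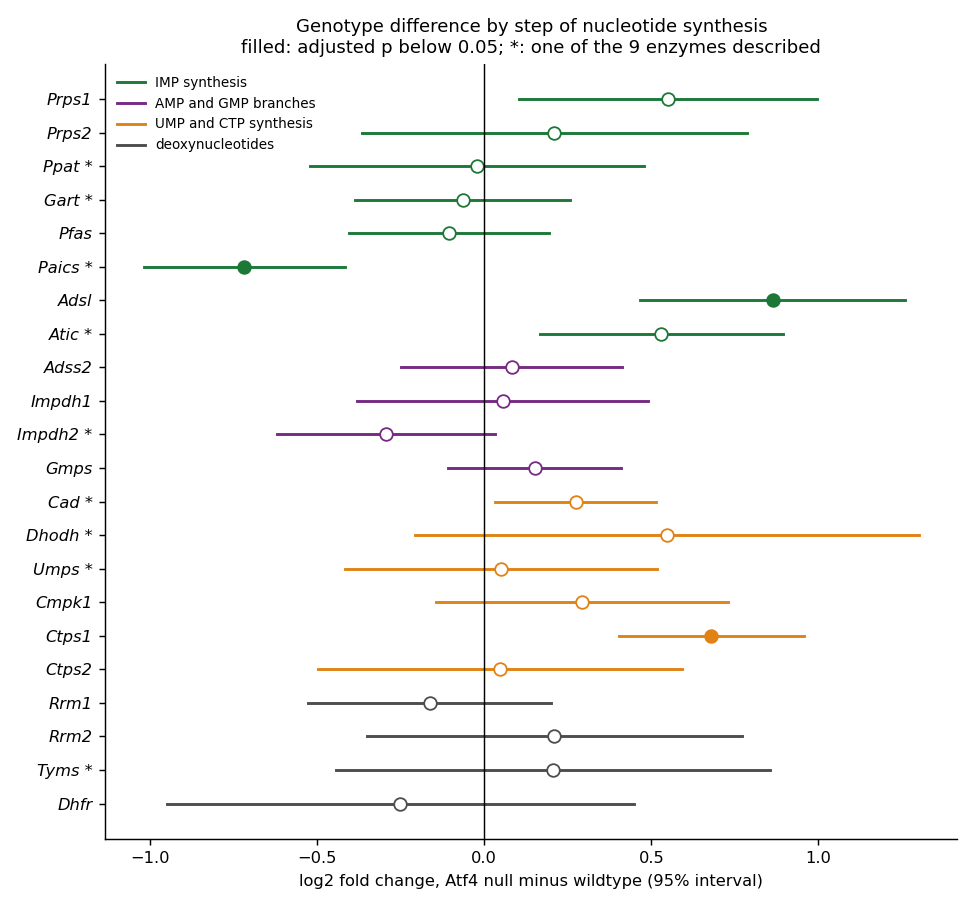
The log2 fold change of *Atf4* null against wildtype lenses is on the x axis, with its 95% interval, for 22 genes grouped by pathway on the y axis. Filled points have an adjusted p below 0.05: *Paics* at -0.72 to the left of 0, and *Adsl* at 0.86 and *Ctps1* at 0.68 to the right.

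*Impdh2* (ENSMUSG00000062867; chr9:108437485-108442783, plus strand) oxidises IMP on the way to GMP and is the isozyme that dividing cells are known to use most. It was at 117, 97.1, 80, 92.4 and 82.8 CPM in wildtype and at 73, 71.6, 97.6 and 64.2 CPM in *Atf4* null replicates. Replicates 1, 2 and 4 of the *Atf4* null lenses were below every wildtype library, while replicate 3 was above 4 of the 5. The means were 94 ± 14.9 (SD, n = 5) and 76.6 ± 14.5 CPM (SD, n = 4), and the log2 fold change of -0.29 had a 95% interval from -0.62 to 0.03 (edgeR adjusted p = 0.315). *Impdh1*, the other isozyme, was at 19.3 ± 2.6 CPM in wildtype (SD, n = 5) and 20.1 ± 3.67 CPM in the null (SD, n = 4), with 0.06 as its log2 fold change (edgeR adjusted p = 0.927). Within libraries, the log2 ratio of *Impdh2* to *Impdh1* ran from 2.03 to 2.23 in wildtype and from 1.62 to 2.08 in *Atf4* null lenses. The mean ratio was 2.16 ± 0.08 (SD, n = 5) against 1.83 ± 0.24 (SD, n = 4), a difference of -0.33 (exact permutation test, two-sided, p = 0.016, adjusted p = 0.024 over 3 ratios). The difference ran from -0.41 to -0.26 with each library left out, and the exact p was 0.057 without wildtype replicate 1, 2, 3 or 4. In the AMP and GMP branches, 0 of the 9 other genes passed edgeR's quasi-likelihood test, 3 had an unadjusted p below 0.05 (19.6% of all genes), and 8 log2 fold changes were positive (50.1% of all genes). Library size alone, as scaling, gave 1 more call, *Ak1*, an adenylate kinase. *Gmps*, which turns XMP into GMP, had a log2 fold change of 0.15 (edgeR adjusted p = 0.561).

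**Figure D3:**
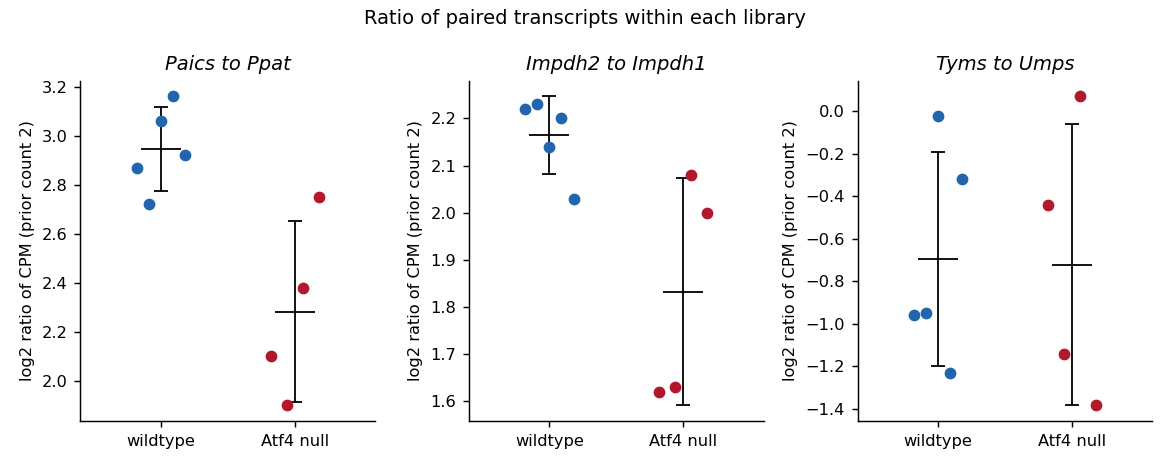
Log2 ratios of CPM within each library, 1 point per library with the group mean, are shown for *Paics* to *Ppat*, *Impdh2* to *Impdh1* and *Tyms* to *Umps*. The first 2 pairs are lower in *Atf4* null lenses by 0.67 and 0.33 with 1 *Atf4* null library reaching the wildtype range in each. The third runs from -1.23 to -0.02 in wildtype and from -1.38 to 0.07 in *Atf4* null libraries.

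In UMP synthesis none of the 3 enzymes passed the test, and each had a positive log2 fold change, though that of *Umps* was -0.02 without wildtype replicate 5 and -0.08 without wildtype replicate 3. *Cad* (ENSMUSG00000013629; chr5:31212111-31236418, plus strand), the trifunctional enzyme that starts the pathway from glutamine, was at 114, 109, 102, 111 and 89.5 CPM in wildtype and at 119, 142, 131 and 116 CPM in *Atf4* null replicates. All *Atf4* null libraries were above all wildtype libraries, though the lowest of them, 116 CPM, was next to the highest wildtype value, 114 CPM. The means of 105 ± 9.67 (SD, n = 5) and 127 ± 11.9 CPM (SD, n = 4) gave a 1.21-fold difference, with a log2 fold change of 0.27, a standard error of 0.11 and a 95% interval from 0.03 to 0.52 (edgeR adjusted p = 0.19, and 0.269 without wildtype replicate 5). Adjusted p over the 18 other settings ran from 0.0416 to 0.41, and *Cad* passed only when scaled by library size alone, which moved the median log2 fold change of all genes to 0.125.

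*Dhodh* (ENSMUSG00000031730; chr8:110317492-110335347, minus strand), which oxidises dihydroorotate at the inner mitochondrial membrane, had the lowest counts of the 9 enzymes, 46 to 119 per library. It was at 5.91, 5.92, 6.42, 11 and 8.89 CPM in wildtype and at 5.28, 10.7, 13 and 15.7 CPM in *Atf4* null replicates. The *Atf4* null libraries included both the lowest and the highest value, and the 95% interval of the log2 fold change of 0.55 ran from -0.21 to 1.3 (edgeR adjusted p = 0.44). The log2 fold change of *Dhodh* was 0.34 without *Atf4* null replicate 4 and 0.79 without *Atf4* null replicate 1. *Umps* (ENSMUSG00000022814; chr16:33774077-33787429, minus strand), the bifunctional enzyme that attaches ribose and yields UMP, was at 34.4, 33.1, 17.9, 37.5 and 23.3 CPM in wildtype and at 27.4, 31, 32.5 and 30.1 CPM in *Atf4* null replicates. The wildtype libraries spread around the narrow *Atf4* null group, with means of 29.2 ± 8.25 (SD, n = 5) and 30.2 ± 2.12 CPM (SD, n = 4). Its log2 fold change was 0.05 with a 95% interval from -0.42 to 0.52 (edgeR adjusted p = 0.941).

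Downstream of UMP, *Ctps1* (ENSMUSG00000028633), which makes CTP from UTP and glutamine, was higher in *Atf4* null lenses. It was at 44 ± 4.13 CPM in wildtype (SD, n = 5), ranging from 39.6 to 50.6, and at 70.6 ± 6.01 CPM in *Atf4* null libraries (SD, n = 4), ranging from 64.8 to 77.6. The 1.6-fold difference had a log2 fold change of 0.68 and a standard error of 0.13 (edgeR's quasi-likelihood test, adjusted p = 0.00688), and *Ctps1* passed in all 18 other settings. Its paralog *Ctps2* had a log2 fold change of 0.05 (edgeR adjusted p = 0.95), and the UMP and CMP kinase *Cmpk1* had 0.29 (edgeR adjusted p = 0.484). All 7 tested genes of a list of 8 for UMP and CTP synthesis had a positive log2 fold change, with a median of 0.29, where 50.1% of all genes were positive. Of these 7, *Ctps1* was the only one called, beside 5.9% of all genes (2.23% higher), and *Umps* and *Ctps2* turned negative when certain single libraries were left out.

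*Tyms* (ENSMUSG00000025747; chr5:30263198-30278633, minus strand) methylates dUMP to dTMP, the step that ties thymidine supply to folate, and its transcript is known to be most abundant in dividing cells. It was at 16.7, 16.2, 17.7, 14.8 and 18.3 CPM in wildtype and at 19.6, 13, 34.1 and 10.3 CPM in *Atf4* null replicates. The wildtype libraries agreed closely and the *Atf4* null libraries lay on both sides of them, with a coefficient of variation of 8.12% in wildtype and 55.3% in *Atf4* null libraries. Its log2 fold change was 0.21 with a 95% interval from -0.44 to 0.86 (edgeR adjusted p = 0.786), and without *Atf4* null replicate 3 it was -0.23. The highest *Tyms* value was 3.3 times the lowest in *Atf4* null lenses and 1.24 times in wildtype. The 20 cell cycle genes summed to 2010, 1280, 1380 and 688 CPM in *Atf4* null replicates 1 to 4 and to between 1200 and 1380 CPM in wildtype. *Atf4* null replicate 4 was lowest on both measures, but replicate 3 was highest for *Tyms* and replicate 1 for the summed cell cycle genes. In the *Atf4* null libraries the summed cell cycle genes had the same order as the retina markers (650, 406, 444 and 227 CPM in replicates 1 to 4). They had the opposite order to the lens fiber markers (47100, 73000, 70400 and 112000 CPM). The lens epithelium markers (783, 851, 802 and 602 CPM) followed neither order. The part of these markers in the spread was not tested.

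**Figure D4:**
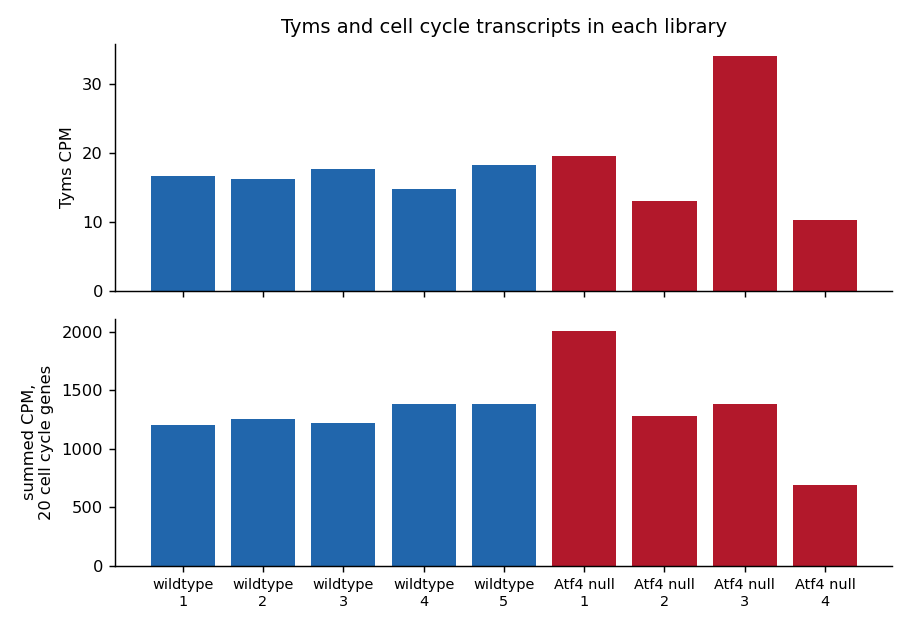
Bars from 0 give *Tyms* in CPM and the summed CPM of 20 cell cycle genes in each of 9 libraries. The 5 wildtype libraries are nearly level on both (14.8 to 18.3 CPM and 1200 to 1380 CPM), and the 4 *Atf4* null libraries range from 10.3 to 34.1 CPM and from 688 to 2010 CPM.

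By edgeR's quasi-likelihood test, 0 of the 20 cell cycle genes passed the adjusted threshold, 0 had an unadjusted p below 0.05, and DESeq2 called 0 as well. *Mki67*, a marker of cycling cells, was at 479 ± 43.4 CPM in wildtype (SD, n = 5) and 486 ± 223 CPM in the null (SD, n = 4) (edgeR adjusted p = 0.977). The study stained KI-67 protein at the same stage and reported a smaller share of positive lens epithelial cells in the null. Whole-lens RNA is a different measure from that share. The replication gene *Mcm2* had a log2 fold change of -0.2 (edgeR adjusted p = 0.519), and *Top2a*, a topoisomerase of dividing cells, had 0.17 (edgeR adjusted p = 0.804). Among the 8 other genes of deoxyribonucleotide synthesis, 0 passed edgeR's test and 0 had an unadjusted p below 0.05. *Rrm1*, the large subunit of ribonucleotide reductase, had a log2 fold change of -0.16 (edgeR adjusted p = 0.669), and *Samhd1*, which breaks down deoxyribonucleotides, had -0.13 (edgeR adjusted p = 0.743). The log2 ratio of *Tyms* to *Umps* was -0.7 ± 0.51 in wildtype (SD, n = 5) and -0.72 ± 0.66 in the null (SD, n = 4) (exact permutation test, two-sided, p = 0.94, adjusted p = 0.94 over 3 ratios).

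Levels of different genes were compared per length, as FPKM over the summed exons. In wildtype lenses *Impdh2* was at 30.5 ± 4.83, *Paics* at 21.5 ± 3.74, *Cad* at 11.9 ± 1.1, *Gart* at 11.6 ± 1.39, *Atic* at 5.49 ± 0.957, *Umps* at 4.76 ± 1.34, *Ppat* at 4.08 ± 0.907, *Tyms* at 2.58 ± 0.21 and *Dhodh* at 1.1 ± 0.327 FPKM (SD, n = 5). *Cad* and *Gart*, *Atic* and *Umps*, and *Umps* and *Ppat* overlapped between libraries, and the order of each of these neighbours held in 3, 4 and 4 of 5 wildtype libraries. In *Atf4* null lenses the mean of *Cad* (14.4 FPKM) was above that of *Paics* (13.1 FPKM). *Paics* was above *Cad* in 5 of 5 wildtype but in 1 of 4 *Atf4* null libraries. This crossing held only for the summed exon length, since over the canonical transcript the *Atf4* null means were 31.8 FPKM for *Paics* and 16.4 FPKM for *Cad*. The order of the first 5 rested on the length used: over the canonical transcript alone the wildtype means were 52.4 FPKM for *Paics*, 50.6 for *Impdh2*, 25.5 for *Gart*, 15.8 for *Atic* and 13.6 for *Cad*. With either length the last 4 wildtype means were those of *Umps*, *Ppat*, *Tyms* and *Dhodh*, in that order.

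**Figure D5:**
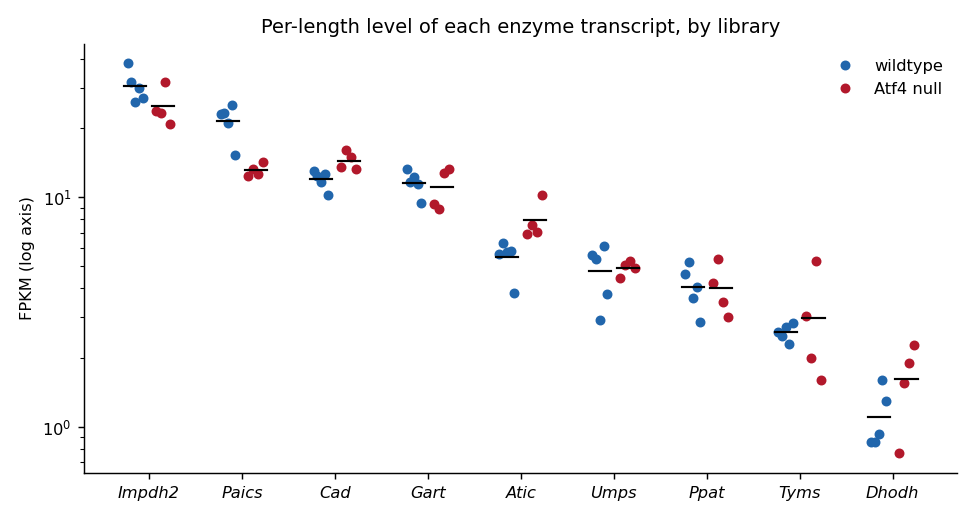
FPKM of the 9 enzymes on a log axis, in the order of the wildtype means, with a point for each library of 5 wildtype and 4 *Atf4* null lenses. *Impdh2* is highest in wildtype at 30.5 FPKM and *Dhodh* lowest at 1.1 FPKM, and *Paics* moves from 21.5 to 13.1 FPKM between wildtype and *Atf4* null means.

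Genes that supply one-carbon units to *Gart*, *Atic* and *Tyms*, or consume them, were lower in part. Of 13 genes of folate one-carbon supply, 3 were called lower and none higher, beside 3.67% and 2.23% of all genes tested. The median log2 fold change of the list was -0.1, with 9 values negative and 4 positive. *Mthfd1l*, which releases formate in the mitochondrion, fell from 113 ± 28.3 CPM in wildtype (SD, n = 5) to 49.5 ± 7.59 CPM in the null (SD, n = 4), a change of -1.2 on the log2 scale with a standard error of 0.18 (edgeR adjusted p = 0.00157). *Mthfd2*, the mitochondrial dehydrogenase and cyclohydrolase before it, fell from 20.9 ± 6.74 CPM (SD, n = 5) to 7.27 ± 2.9 CPM (SD, n = 4), with a log2 fold change of -1.52 and a standard error of 0.34 (edgeR adjusted p = 0.0171). The difference in *Mthfd2* missed the threshold without *Atf4* null replicate 2, with a log2 fold change of -1.5 (edgeR adjusted p = 0.0542), within a range from 0.000312 to 0.0542 over 18 settings. *Aldh1l1*, which instead removes formyl groups from folate, fell from 8.76 ± 1.25 CPM (SD, n = 5) to 0.614 ± 0.613 CPM (SD, n = 4) with a log2 fold change of -3.76 and a standard error of 0.6 (edgeR adjusted p = 0.00226). Its size rested on *Atf4* null replicate 1, without which the log2 fold change was -4.68, within a range from -4.68 to -3.43 over 17 other settings, in all of which it passed. The 3 called genes are known as suppliers (*Mthfd1l* and *Mthfd2*) and as a consumer (*Aldh1l1*) of formyl folate. *Shmt2*, the mitochondrial serine hydroxymethyltransferase, did not overlap between groups, had a log2 fold change of -0.61 and missed the threshold (edgeR adjusted p = 0.0804). Its adjusted p over 18 other settings ran from 0.0266 to 0.247, and it passed in 2 of them, DESeq2 (adjusted p = 0.0266) and edgeR with no filter on low counts (adjusted p = 0.0342).

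Enzymes that use glutamine as nitrogen donor were listed as well, and *Ppat* and *Cad*, which belong to them, were not called. Of the 7 others in the list, *Ctps1* was called higher, the asparagine synthetase *Asns* lower, and 5 did not pass, beside 2.23% of all genes called higher and 3.67% lower. *Asns*, a known target of ATF4, fell from 18.2 ± 3.84 CPM (SD, n = 5) to 7.44 ± 2.97 CPM (SD, n = 4), with a log2 fold change of -1.3 and a standard error of 0.31 (edgeR adjusted p = 0.0243). Its adjusted p over the 18 other settings ran from 0.00179 to 0.0818, above the threshold when *Atf4* null replicate 2 or 3 or wildtype replicate 1, 2 or 3 was left out, where the log2 fold change stayed between -1.39 and -1.2. *Gfpt1* of hexosamine synthesis had a log2 fold change of 0.03 (edgeR adjusted p = 0.924).

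The genes of salvage, which recovers bases and nucleosides, and of breakdown gave no call. Of 13 genes of purine salvage and breakdown, 9 were tested, 0 passed edgeR's quasi-likelihood test, 1 had an unadjusted p below 0.05, and the log2 fold changes had a median of -0.27. *Aprt*, which recovers adenine, had a log2 fold change of -0.37 (edgeR adjusted p = 0.318), and the AMP deaminase *Ampd2* had -0.18 (edgeR adjusted p = 0.666). Of 12 genes of pyrimidine salvage and breakdown, 9 were tested, 0 passed, 2 had an unadjusted p below 0.05, and the median was -0.3. The uridine and cytidine kinases *Uck2* and *Uck1* had log2 fold changes of 0.14 and 0.18 (edgeR adjusted p = 0.689 and 0.787). Over all pathway genes other than the 9 enzymes, 45 of 53 were tested, 2 were called (*Adsl* and *Ctps1*, both higher), 9 had an unadjusted p below 0.05, and the log2 fold changes had a median of 0.01. Both counts are near the shares of all genes tested, 5.9% called and 19.6% with an unadjusted p below 0.05. DESeq2 called the same 2 genes and edgeR's test scaled by library size alone called 3.

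Regulators known to act on nucleotide enzymes were also listed, and 0 of 8 passed edgeR's test. *Mycn*, of the MYC family that binds the E-box, was the only one with an unadjusted p below 0.05, with a log2 fold change of 0.42 (edgeR adjusted p = 0.184). Its adjusted p ran from 0.028 to 0.332 over 18 other settings, passing with library size alone. *Nrf1*, a factor long studied at the shared *Ppat* and *Paics* promoter, had a log2 fold change of -0.19 (edgeR adjusted p = 0.46).

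Sequence around the start sites was read from GRCm39 for a motif of each kind of factor, since *Paics* passed the test and its neighbour *Ppat* did not. The ATF4 element was searched as TGATGNAA and the E-box as CACGTG, on both strands, from 250 bases before to 50 bases after the annotated start of each canonical transcript. The ATF4 element was in 3.84% and the E-box in 7.81% of 21770 windows of protein-coding genes. Among the 9 enzymes the ATF4 element was found in 1, *Impdh2*, and the E-box in 4, *Paics*, *Atic*, *Impdh2* and *Tyms*. The sites are shown as 30 bases of GRCm39, 5′ to 3′ on the strand of the gene, because they mark where the called and the uncalled enzymes carry these letters, with the motif in capitals.
Paics, E-box 193 bases before the start, chr5:77098934-77098963, plus strand: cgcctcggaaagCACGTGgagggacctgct
Paics and Ppat, E-box in the shared first exon, chr5:77099200-77099229, plus strand: ctactttctctgCACGTGggaggctccgtt
Atic, E-box 1 base before the start, chr1:71596296-71596325, plus strand: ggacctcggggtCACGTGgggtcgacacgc
Tyms, E-box 57 bases before the start, chr5:30278667-30278696, minus strand: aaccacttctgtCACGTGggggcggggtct
Impdh2, E-box 41 bases after the start, chr9:108437505-108437534, plus strand: gggcctgtgagctcgataagCACGTGgtta
Impdh2, ATF4 element 232 bases before the start, chr9:108437241-108437270, plus strand: ggctcctgtgccTGATGGAAttcttgtaac

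The E-box before *Paics* falls in an annotated exon of *Ppat*, and the ATF4 element before *Impdh2* falls in an exon of the neighbouring gene *Qrich1*. The shared first exon of *Ppat* and *Paics* holds a further E-box 74 bases after the *Paics* start, outside the searched window of *Paics*, and no ATF4 element over its 298 bases, of which 65.8% are G or C. *Paics*, the enzyme called lower, and *Atic*, which lay higher without passing the test, both carried an E-box. No match says only that these letters were not in the window, and no binding was measured here.

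Some reads of the 9 enzymes could belong to other genes. Besides the exon that *Ppat* and *Paics* share, 7.6% of the exon length of *Gart* overlaps *Son* on the opposite strand, with starts 84 bases apart, and 13.1% overlaps *Gm15964*. *Umps* overlaps *Gm15829* over 3.8% and *Impdh2* overlaps *Ndufaf3* over 1.8% of exon length. The pseudogene *Impdh2-ps* had 0 to 4 counts per library and *Tyms-ps* had 0.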

How the data were processed

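Lens RNA of 4 *Atf4* null and 5 wildtype embryos was prepared by the authors with a stranded low-input kit. Their methods name Trim Galore for trimming, HISAT2 for the removal of ribosomal reads, GRCm39 as the genome of the alignment, and HTSeq for counting over Ensembl genes (versions and strand setting not given in the sources used here). The deposited values were whole-number counts per gene, without normalization, and HTSeq's 5 summary entries, 44.6 to 47.7% of each file, were left out. Identifiers were matched to GENCODE vM39, of the same build. The wildtype replicate numbers are uncertain, since titles and file names cross within that genotype.

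The counts were fitted in edgeR 4.0.16 (R 4.3.3): filterByExpr, TMM factors and the quasi-likelihood test on genotype with no covariate, all 9 libraries, Benjamini-Hochberg over 14903 genes, threshold 0.05. CPM are TMM-scaled, and FPKM divide them by summed exon length. Ratios used a prior count of 2 and exact permutation tests. The script was tested on simulated counts. Of genes changed 1.5-fold, 2-fold and 4-fold, 6.45%, 32.3% and 76.8% were called, beside 0.0353% of unchanged genes. Most changes of 2-fold or less were thus missed in the simulation. Alternatives included DESeq2 1.42.0, exactTest, other scalings and filters, and each library left out.

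All 9 enzymes, every called gene of the lists and their 2 uncalled genes with the most counts (3 for the cell cycle) are named, except 2 uncalled genes that are not reported here. *Impdh1* and *Ak1* were added after their values were seen. The enzymes and lists were chosen with earlier results of these data known.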

Additional observations from a re-analysis of the deposited data

Results flagged for a closer look

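*Atic* in wildtype lenses had 1 library far from the other 4. Wildtype replicate 5 was at 36.3 CPM, and its gap to the nearest of the others was 0.736 of the group's whole range, above Dixon's critical value for 5 samples. It was the only such library among 24 groups looked at, where chance gives about 1 in 20. The same library held the muscle and mesenchyme markers given above, whose part in this value was not tested. Without it the log2 fold change of *Atic* was 0.43 in place of 0.53.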

How the results depend on the processing

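*Paics* was called in all 18 alternatives, and each library left out in turn gave 1 called enzyme. Scaling by library size alone called 3 enzymes (*Cad*, *Paics* and *Atic*) and DESeq2 called 2 (*Paics* and *Atic*). With library size alone *Ppat* had a log2 fold change of 0.13, *Gart* 0.05, *Pfas* 0.03 and *Prpsap1* 0.08, each opposite in sign to the reported value.

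With each library left out, log2 fold changes crossed 0 for *Umps* (-0.08 to 0.15), *Ppat* (-0.19 to 0.09), *Gart* (-0.17 to 0.03), *Tyms* (-0.23 to 0.41), *Ctps2* (-0.07 to 0.22), *Mki67* (-0.29 to 0.26), *Prpsap1* (-0.08 to 0.03) and *Top2a* (-0.2 to 0.41), and reached 0.0 for *Gfpt1* (0.0 to 0.1). The ratio of *Paics* to *Ppat* differed by -0.82 to -0.54, that of *Impdh2* to *Impdh1* by -0.41 to -0.26 and that of *Tyms* to *Umps* by -0.29 to 0.19.

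Libraries with the same replicate number did not deviate together (correlations from -0.13 to 0.01). Since the wildtype numbers are uncertain, this cannot settle whether libraries were paired. With the replicate block edgeR called 1 enzyme, and *Mki67* had a log2 fold change of -0.06. Under pairing by replicate number, the ratio difference was -0.67 for *Paics* to *Ppat* and -0.36 for *Impdh2* to *Impdh1* (exact p = 0.12 each, the smallest 4 pairs allow). It was 0.07 for *Tyms* to *Umps*.

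The causes of these shifts were not tested. With 46 to 119 counts per library, *Dhodh* was the least precisely measured of the 9 enzymes.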
